A study of Homo sapiens with 6 samples.

Results

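Long noncoding RNAs (lncRNAs) are transcripts without a protein product, many of which were described first in tumours. MALAT1, NEAT1, MEG3, H19, HOTAIR, PVT1, CYTOR, NORAD, TUG1 and KCNQ1OT1 were read from RNA sequencing of U87-MG, a long-established cell line from a human glioblastoma. The members were the 10 of 61806 genes in the deposited table that carry these symbols, each with 1 entry. The study asked how gene expression differs after knockdown of GRIK1, a kainate-type glutamate receptor subunit. Total RNA of wildtype U87-MG cells was used for 3 negative control libraries (NC) and 3 libraries labelled GRIK1 siRNA, numbered 1 to 3 in each group. The labels give no time point, and they do not tell whether the numbers of the siRNA-labelled libraries are replicates or siRNA sequences. The methods of the study list several siRNAs and its later experiments used the first, while the deposited design text speaks of an shRNA. Nothing says that the libraries came from separate cultures, so p-values measure only the spread between libraries, which may be technical.

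These RNAs work in different places. MALAT1 accumulates in nuclear speckles, domains rich in splicing factors, and NEAT1 is the scaffold of paraspeckles, nuclear bodies that hold RNA-binding proteins. KCNQ1OT1, H19 and MEG3 are imprinted, which means that normally the copy from 1 parent is expressed. HOTAIR is transcribed from the HOXC cluster and is known for its link to the Polycomb repressive complex PRC2, PVT1 lies beside the MYC gene, and NORAD binds Pumilio proteins in the cytoplasm. TUG1 and CYTOR are spliced lncRNAs that are often raised in tumours.

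MALAT1 and NEAT1 are neighbours on chromosome 11 and share an unusual 3′ end. Their long forms end where a tRNA-like small RNA is cut off, and a U-rich and an A-rich tract fold into a triple helix in place of a poly(A) tail. The last 100 bases before the small RNA are shown in DNA letters from the GENCODE 29 transcripts (GRCh38, plus strand), with the runs of at least 10 bases that both share in capitals. The MALAT1 stretch is chr11:65506017-65506116 and the NEAT1 stretch is chr11:65445441-65445540.
MALAT1: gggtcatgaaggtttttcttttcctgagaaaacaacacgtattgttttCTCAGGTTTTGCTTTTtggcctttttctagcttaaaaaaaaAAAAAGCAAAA
NEAT1: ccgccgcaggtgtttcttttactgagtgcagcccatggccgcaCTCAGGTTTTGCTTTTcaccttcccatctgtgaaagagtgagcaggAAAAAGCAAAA
The 2 shared runs are 16 and 11 bases long. The labels do not give whether the libraries were made from poly(A)-selected or rRNA-depleted RNA, which bears on the capture of RNAs without a tail.

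NORAD is a single exon of 5339 bases on the minus strand of chromosome 20, and it carries repeats of the Pumilio element TGTANATA. On the transcript strand alone, 15 matches were found in NORAD, which is 2.81 per kb. Of 29548 lncRNA transcripts in GENCODE 29, 7.37% hold at least 1 match, at a mean of 0.0882 per kb, and 4 transcripts, NORAD included, hold as many as NORAD. At 3 places a pair of elements starts 9 bases apart. These are shown with the elements in capitals, from chr20:36049491-36049531, chr20:36048294-36048334 and chr20:36047658-36047698.
NORAD pair 1: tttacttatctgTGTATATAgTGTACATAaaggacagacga
NORAD pair 2: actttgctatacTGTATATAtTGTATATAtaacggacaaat
NORAD pair 3: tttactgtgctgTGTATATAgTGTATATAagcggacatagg
Among the longest transcripts of the other members, HOTAIR had 3 matches, NEAT1 6, KCNQ1OT1 9, TUG1 2 and MEG3 1. MALAT1, CYTOR, H19 and PVT1 had 0.

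**Figure D1:**
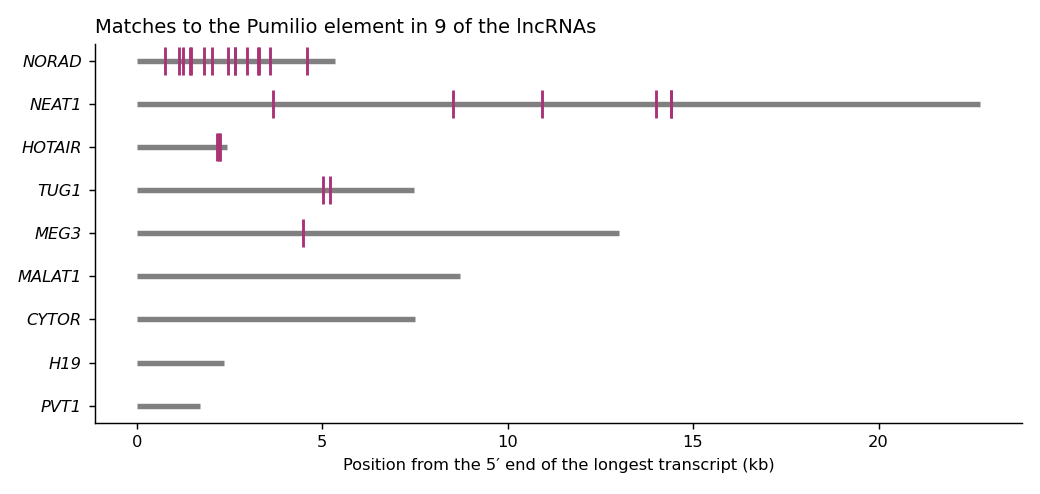
Matches to TGTANATA (vertical marks) along the longest GENCODE 29 transcript of 9 of the lncRNAs, drawn to scale in kb from the 5′ end, with KCNQ1OT1 left out for its length. The 15 matches of NORAD lie along most of its length, and MALAT1, CYTOR, H19 and PVT1 have none.

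KCNQ1OT1 is annotated as 1 unspliced transcript of 91667 bases on the minus strand inside KCNQ1, chr11:2608328-2699994. It starts in the CpG island that serves as the imprinting centre of the region.

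The label "abundant" held for part of the set. By mean FPKM (counts scaled to exon length and to the library total) over the 6 libraries, NORAD stood at 113, NEAT1 at 65.6 and TUG1 at 24.4, above 98.2%, 96.7% and 89.9% of the 15870 genes tested. MALAT1 was at 4.99 FPKM, close to the middle of those genes, with 56.4% of them lower. HOTAIR at 2.14, PVT1 at 1.43 and CYTOR at 1.11 FPKM (above 35.2%, 26.1% and 20.0% of the tested genes) were in the lower part. KCNQ1OT1 at 0.297, MEG3 at 0.0200 and H19 at 0.00833 FPKM fell below the filter of 0.5 FPKM. For KCNQ1OT1 the exonic size of 91667 bases turned 2074 counts in all into this low value.

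**Figure D2:**
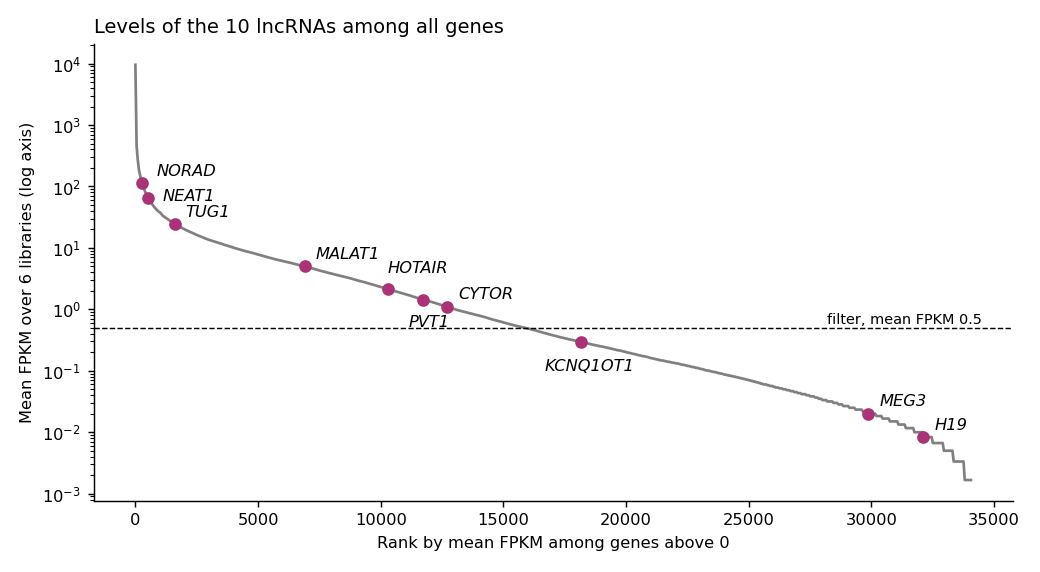
Mean FPKM over 6 libraries (log axis) against the rank among genes above 0, with the curve of all genes in grey and the 10 lncRNAs as points. NORAD, NEAT1 and TUG1 sit in the steep upper part, and KCNQ1OT1, MEG3 and H19 lie below the dashed filter at 0.5 FPKM.

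In FPKM, the order of the levels was the same in both groups down to KCNQ1OT1. In the siRNA-labelled libraries, the ranges of neighbours in the order NORAD, NEAT1, TUG1, MALAT1, HOTAIR, PVT1, CYTOR and KCNQ1OT1 did not overlap. In the NC libraries, NEAT1 (16.95 to 78.52 FPKM) overlapped TUG1 (12.9 to 21.52 FPKM), and MALAT1 (1.93 to 3.99 FPKM) overlapped HOTAIR (0.93 to 2.48 FPKM). HOTAIR also overlapped PVT1 (0.61 to 1.19 FPKM), and PVT1 overlapped CYTOR (0.8 to 1.14 FPKM), so the ranges of these neighbours did not separate. Within each NC library, however, NEAT1 was above TUG1, MALAT1 above HOTAIR and HOTAIR above PVT1, while PVT1 was above CYTOR in NC libraries 1 and 2 and below it in NC library 3. This order is one of FPKM alone. In counts, which are not divided by exonic size, PVT1 and CYTOR lay above HOTAIR in every library.

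Facts of the whole series bear on all values below. Total counts per library lay between 11099909 and 14006968. GRIK1 itself had 18, 9 and 8 counts in NC libraries 1 to 3 against 15, 20 and 20 in the siRNA-labelled libraries, so it was not lower in the latter. These counts are few, at 0.13 to 0.38 FPKM per library. The paper describes the knockdown in U87-MG cells as efficient, from its own measurements of GRIK1 levels. NC library 3 stood apart from the other 5. Ribosomal protein genes took 9.37% of its counts against 4.79% to 5.50% elsewhere, and the common dispersion was 0.0391 with it and 0.00298 without it. More genes had a count in the siRNA-labelled libraries (26134 to 27049) than in the NC libraries (23902 to 24993). Of 7 glioma and glial markers, only VIM and CD44 were high in all 6 libraries. NES (0.21 to 0.69 FPKM), GFAP (0.05 to 0.28) and OLIG2 (0.41 to 0.83) were low, and 2 had a mean under 0.1 FPKM. The summed level of the 7 was 876 to 1149 FPKM in NC and 1066 to 1096 in the siRNA-labelled libraries. Most of this sum was VIM, with 825 to 1076 FPKM per library. Neuron, immune, endothelial and epithelial markers summed to at most 2.81 FPKM per library in each list, and CD3E was at 0 in all 6.

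For the comparison of the groups, counts were scaled by the TMM method to normalised CPM, a count scaled to library size, and tested with the quasi-likelihood test of edgeR. A call was an adjusted p under 0.05 (Benjamini-Hochberg over all genes tested). With the filter at 0.5 FPKM, 7 of the 10 lncRNAs were tested and 0 of the 7 were called, against a background of 3.08% of the tested genes (489 of 15870). With a fold of more than 2 in either direction as a second condition, the background was 1.41%. At an unadjusted p under 0.05, 3 of the 7 passed, against 25.1% of the tested genes. Of the 7, 6 had a higher mean fit in the siRNA-labelled libraries, as had 48.6% of all tested genes. The median log2 fold change of the 7 was 0.39, against -0.017 over all tested genes. Without NC library 3, 4 of the 7 were higher, against 50.7% of all tested genes, and the median of the 7 was 0.54. In 4 of the 7 the groups did not overlap in normalised CPM, which was also true of 38.4% of the tested genes. The other 3 members, KCNQ1OT1, MEG3 and H19, were read from the fit without the filter, where 4.12% of 34080 genes were called, and 1 of them, KCNQ1OT1, was called. In that fit 4 of the 10 were called, each as higher, namely KCNQ1OT1, MALAT1, PVT1 and TUG1. DESeq2 called 3 of the 7 tested (MALAT1, PVT1 and TUG1), against 11.8% of its genes. Without NC library 3, 5 of the 7 were called against 35.2% of the tested genes. In bulk RNA, fewer cells that express a gene and less RNA per cell cannot be told apart.

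KCNQ1OT1, the antisense RNA that silences neighbouring genes on the paternal chromosome, rose 6.66-fold. Its counts were 86, 102 and 49 in NC libraries 1 to 3 and 332, 741 and 764 in the siRNA-labelled libraries 1 to 3. In normalised CPM these were 7.62, 9.11 and 3.92 against 25.9, 56.9 and 56.3. The groups did not overlap, and the siRNA-labelled library 1 was less than 1/2 of libraries 2 and 3 while still above every NC library. The log2 fold change was 2.74 with a standard error of 0.28, and the fold had a 95% interval from 4.48 to 9.89 (edgeR without the filter, adjusted p = 4.19e-06). Leaving out NC library 3 gave 2.44, and each fit that left out 1 library kept the call, all without the filter. The call was weakest without the siRNA-labelled library 3 (log2 fold change 2.56, adjusted p = 0.0431). With the filterByExpr filter of edgeR, which kept KCNQ1OT1, the log2 fold change was 2.75 and the adjusted p only 0.0274. The call was lost in limma-trend on log2(FPKM + 1), where the difference was 0.49 (adjusted p = 0.138), and on log2(FPKM + 0.1), where it was 1.80 (adjusted p = 0.134). The larger number of detected genes in the siRNA-labelled libraries moved in the same direction, and its part in the result was not tested.

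KCNQ1, the potassium channel gene on the opposite strand that contains KCNQ1OT1, had counts of 5, 1 and 6 in NC and 5, 3 and 0 in the siRNA-labelled libraries. It was thus near 0 in all libraries and showed no difference beyond counting error. The strand setting of the counting is not given in the sources used here, so reads from both strands cannot be told apart with certainty. Among 10 imprinted genes of the 11p15 and 14q32 regions, 2 passed the filter and 0 were called. PHLDA2, a placental growth regulator beside KCNQ1, had a log2 fold change of -0.044 and SLC22A18, a transporter gene of the same cluster, one of -0.53 (adjusted p = 0.914 and 0.180). SLC22A18 was called as lower without NC library 3, at -0.75.

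MALAT1 (ENSG00000251562, chr11:65497688-65506516) had counts of 343, 392 and 239 in NC and 544, 885 and 889 in the siRNA-labelled libraries. Normalised CPM values were 30.4, 35.0 and 19.1 against 42.5, 68.0 and 65.5, or 28.2 ± 8.17 against 58.7 ± 14.04 (SD, n = 3 each). The groups did not overlap, NC library 3 was lowest, and the siRNA-labelled library 1 lay between NC and the other pair. The fold was 2.08 with a 95% interval from 1.36 to 3.20 (edgeR, log2 fold change 1.06, adjusted p = 0.0747), which misses the threshold. Without the filter the adjusted p was 0.00488, in DESeq2 0.00551, and without NC library 3 the log2 fold change was 0.85 (adjusted p = 0.000234). TALAM1, the antisense transcript over MALAT1, had 1 to 3 counts in each library.

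NEAT1 (ENSG00000245532, chr11:65422774-65445540) had by far the most counts of the set, with 19414, 19885 and 5406 in NC and 13305, 25412 and 25725 in the siRNA-labelled libraries. This gave normalised CPM of 1720, 1776 and 433 against 1040, 1951 and 1896. The groups overlapped, since NC libraries 1 and 2 lay above the siRNA-labelled library 1. The log2 fold change was 0.31 with a standard error of 0.50 and an adjusted p of 0.717, and the fold had a 95% interval from 0.550 to 2.81. The sign turned without NC library 3, to -0.10 (adjusted p = 0.677), so no direction can be given. GENCODE 29 lists 8 NEAT1 transcripts, of which 1 runs the whole 22743 bases. The deposited gene-level counts do not separate it from the short ones, which have at most 3524 bases and overlap its first part.

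The proteins that NEAT1 and MALAT1 work with gave no calls in the comparison of all 6 libraries. Of 15 paraspeckle proteins, 15 were tested, 0 were called and 3 had an unadjusted p under 0.05, against 25.1% of all tested genes. DESeq2 called 2, and the median log2 fold change of the 15 was -0.039. HNRNPK, the most abundant, had -0.082 and SFPQ, a core paraspeckle protein, 0.35 (adjusted p = 0.690 and 0.365). The 3 with an unadjusted p under 0.05 were NONO, PSPC1 and NUDT21, at -0.39, -0.49 and -0.40 (edgeR, adjusted p = 0.0940, 0.0849 and 0.133). Without NC library 3 these 3 were called as lower, while SFPQ was at 0.12 (adjusted p = 0.0594). Of 10 nuclear speckle proteins, 0 were called, 0 had an unadjusted p under 0.05, DESeq2 also called 0, and the median was -0.022. SRRM2, a scaffold protein of speckles, had -0.35 and SON, the other scaffold, 0.20. These became -0.77 (adjusted p = 5.38e-08) and -0.0020 without NC library 3. In the fit without NC library 3, 10 of the 15 and 3 of the 10 were called, 3 and 1 of them as higher, against the 35.2% given above.

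PVT1 (ENSG00000249859, on the plus strand of chromosome 8) had counts of 336, 302 and 218 in NC and 557, 639 and 662 in the siRNA-labelled libraries. In normalised CPM these were 29.8, 26.97 and 17.4 against 43.5, 49.1 and 48.8, or 24.7 ± 6.47 against 47.1 ± 3.12 (SD, n = 3 each). The groups did not overlap, and the lowest siRNA-labelled library was well above the highest NC library. The fold was 1.91 with a 95% interval from 1.38 to 2.64 (edgeR, log2 fold change 0.93, adjusted p = 0.0543). It passed without the filter (adjusted p = 0.00632), in DESeq2 (0.00187) and without NC library 3 (log2 fold change 0.73, adjusted p = 5.41e-06).

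MYC, the proto-oncogene 51575 bases from PVT1, had counts of 647, 621 and 622 in NC and 489, 480 and 543 in the siRNA-labelled libraries. Its log2 fold change was -0.50 (edgeR, adjusted p = 0.0642), opposite in sign to that of PVT1. It was -0.55 without NC library 3 (adjusted p = 1.56e-05), and DESeq2 gave an adjusted p of 0.00904. The other genes over PVT1 with a count, LINC02912, ENSG00000278275, MIR1205 and MIR1208, had at most 24 counts in a library.

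TUG1 (ENSG00000253352, chr22:30969245-30979395) had counts of 2425, 2249 and 1834 in NC and 3863, 3846 and 4220 in the siRNA-labelled libraries. After scaling these were, in CPM, 215, 201 and 147 against 302, 295 and 311, or 188 ± 35.99 against 303 ± 7.86 (SD, n = 3 each). The 3 siRNA-labelled libraries lay close together and did not overlap with NC. The fold was 1.61 with a 95% interval from 1.24 to 2.10 (edgeR, log2 fold change 0.69, adjusted p = 0.0660). It passed without the filter (adjusted p = 0.0300), in DESeq2 (0.00411) and without NC library 3 (0.54, adjusted p = 1.75e-07).

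TUG1 starts 471 bases from MORC2, a gene for an ATPase of chromatin silencing that is transcribed the other way. MORC2 had normalised CPM of 37.9, 38.0 and 18.2 in NC and 44.9, 46.5 and 47.8 in the siRNA-labelled libraries. Its groups did not overlap either, which was true of 38.4% of all tested genes. Its log2 fold change was 0.56 (adjusted p = 0.228), and 0.29 without NC library 3 (adjusted p = 0.00633). SMTN, a smooth muscle cytoskeletal gene 84710 bases away, had 0.85, and OSBP2, an oxysterol-binding protein gene 61421 bases away, 0.58 (adjusted p = 0.154 and 0.160). All 4 tested genes within 100000 bases had positive values, as had 48.6% of all tested genes, and 0 of the 4 were called. Of the 4, 3 were called when NC library 3 was left out, against 35.2% of all tested genes. The TUG1 promoter, most of which lies in the gap to MORC2, is shown because the pair flanking it had the same sign. Whether both genes are controlled together was not tested. The sequence is from RefSeq (GRCh38.p14, plus strand, chr22:30969015-30969314). Capitals mark CCAAT and GGGCGG on either strand.
TUG1 promoter: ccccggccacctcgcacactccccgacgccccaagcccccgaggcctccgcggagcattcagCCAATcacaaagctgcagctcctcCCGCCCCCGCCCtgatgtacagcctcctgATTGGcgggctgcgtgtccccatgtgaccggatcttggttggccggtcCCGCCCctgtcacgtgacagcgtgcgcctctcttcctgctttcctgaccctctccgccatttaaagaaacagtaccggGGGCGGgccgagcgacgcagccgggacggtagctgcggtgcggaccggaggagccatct
It holds 2 matches to CCAAT and 4 to GGGCGG. Of 35116 promoters of the same length, 34.6% hold at least 1 CCAAT and 45.0% at least 1 GGGCGG, and 10.8% and 7.91% hold as many as TUG1. The promoter table matched 6 of the 10 members.

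CYTOR (ENSG00000222041, chr2:87454781-87636740) had counts of 159, 159 and 284 in NC and 303, 286 and 290 in the siRNA-labelled libraries. The normalised CPM values were 14.1, 14.2 and 22.7 against 23.7, 22.0 and 21.4. NC library 3 lay among the siRNA-labelled libraries, so the groups overlapped, although in FPKM, which uses total counts alone, they did not (0.81, 0.80 and 1.14 against 1.38, 1.27 and 1.23). The log2 fold change was 0.39 with a standard error of 0.21 (edgeR, adjusted p = 0.276). The difference was 0.66 with NC library 3 left out (adjusted p = 0.000138). CYTOR shares sequence with its paralog MIR4435-2HG. Of the 31-base words in CYTOR transcripts, 18.7% also occur in those of MIR4435-2HG, so the counts of both are uncertain where reads were shared. MIR4435-2HG had a log2 fold change of 0.090 (adjusted p = 0.812), and 0.37 without NC library 3 (adjusted p = 0.0118). Of the genes that overlap CYTOR, NCAL1 had 17 to 40 counts in a library, LINC01943 3 to 15, PAFAH1B1P1 at most 6 and ENSG00000273445 at most 1.

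HOTAIR (ENSG00000228630, chr12:53962308-53974956) had counts of 79, 85 and 40 in NC and 94, 97 and 89 in the siRNA-labelled libraries. In normalised CPM these were 7.00, 7.59 and 3.20 against 7.35, 7.45 and 6.56. The groups overlapped, and NC library 3 was alone at the bottom. The log2 fold change was 0.27 (adjusted p = 0.609), with a 95% interval of the fold from 0.729 to 1.99. It turned to -0.035 when NC library 3 was left out (adjusted p = 0.898).

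The HOXC genes beside HOTAIR, transcription factors of body patterning, were measured for 9 of 9, and 3 passed the filter. None of the 3 was called by edgeR or DESeq2, and 1 had an unadjusted p under 0.05, against 25.1% of all tested genes. HOXC6 had a log2 fold change of 0.21, HOXC4 -0.54 and HOXC8 0.20. With NC library 3 left out, HOXC4 was called as lower (-0.57, adjusted p = 0.0328), HOXC6 was at 0.093 and HOXC8 turned to -0.070. HOXC11, which overlaps HOTAIR on the opposite strand, had at most 12 counts in a library, and ENSG00000274817 and ENSG00000277129 over HOTAIR had at most 6 and 1. Of 11 PRC2 genes, 0 were called and 1 had an unadjusted p under 0.05, against 25.1% of all tested genes. The 1 was JARID2, which helps to recruit the complex. JARID2 had 0.81 (adjusted p = 0.0797), EZH2, the methyltransferase, -0.22 and SUZ12, a core subunit, -0.11. The median of the 11 was -0.15, and DESeq2 called 1. Leaving out NC library 3 gave 5 calls among the 11, against 35.2% of all tested genes. Of these 5, 1 was higher (JARID2, 0.61, adjusted p = 1.72e-05) and 4 were lower, EZH2 among them (-0.32, adjusted p = 0.000988).

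NORAD (ENSG00000260032, chr20:36045618-36051018) was the tested member with the opposite sign. Its counts were 6923, 6806 and 10812 in NC and 6550, 7230 and 7270 in the siRNA-labelled libraries. In normalised CPM these were 613, 608 and 865 against 512, 555 and 536, or 695 ± 147 against 534 ± 21.7 (SD, n = 3 each). The groups did not overlap, and NC library 3 was the highest. The fold was 0.768 with a 95% interval from 0.581 to 1.02 (edgeR, log2 fold change -0.38, adjusted p = 0.216). Without NC library 3 the difference was smaller and passed, at -0.19 (adjusted p = 0.00527).

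Of 8 NORAD partners, 0 were called. An unadjusted p under 0.05 was seen for 25.1% of all tested genes and for 2 of the 8 partners. These were RBMX, an RNA-binding protein of the genome stability complex around NORAD, at -0.52 and TOP1, a topoisomerase, at 0.49 (adjusted p = 0.0813 and 0.119). PUM2, a Pumilio protein, which binds the elements shown above, had -0.12 (adjusted p = 0.515). DESeq2 called 1 of the 8. A fit without NC library 3 called 4, 2 as higher and 2 as lower, against 35.2% of all tested genes.

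H19 and MEG3 were near 0. H19, an imprinted RNA of fetal tissue, had 0 counts in 5 libraries and 2 in the siRNA-labelled library 2. A count of 0 allows up to 3, so no difference was detectable at this depth. MEG3, a growth-restraining imprinted RNA, had 3, 6 and 13 counts in NC and 1, 5 and 9 in the siRNA-labelled libraries, which overlap. Its log2 fold change in the fit without the filter was -0.74 with a standard error of 0.69 (adjusted p = 0.620). MRPL23, a mitochondrial ribosome gene beside H19, had -0.093 (adjusted p = 0.759), and 0.077 without NC library 3. MEG8, an RNA of the same imprinted cluster as MEG3, had at most 5 counts.

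**Figure D3:**
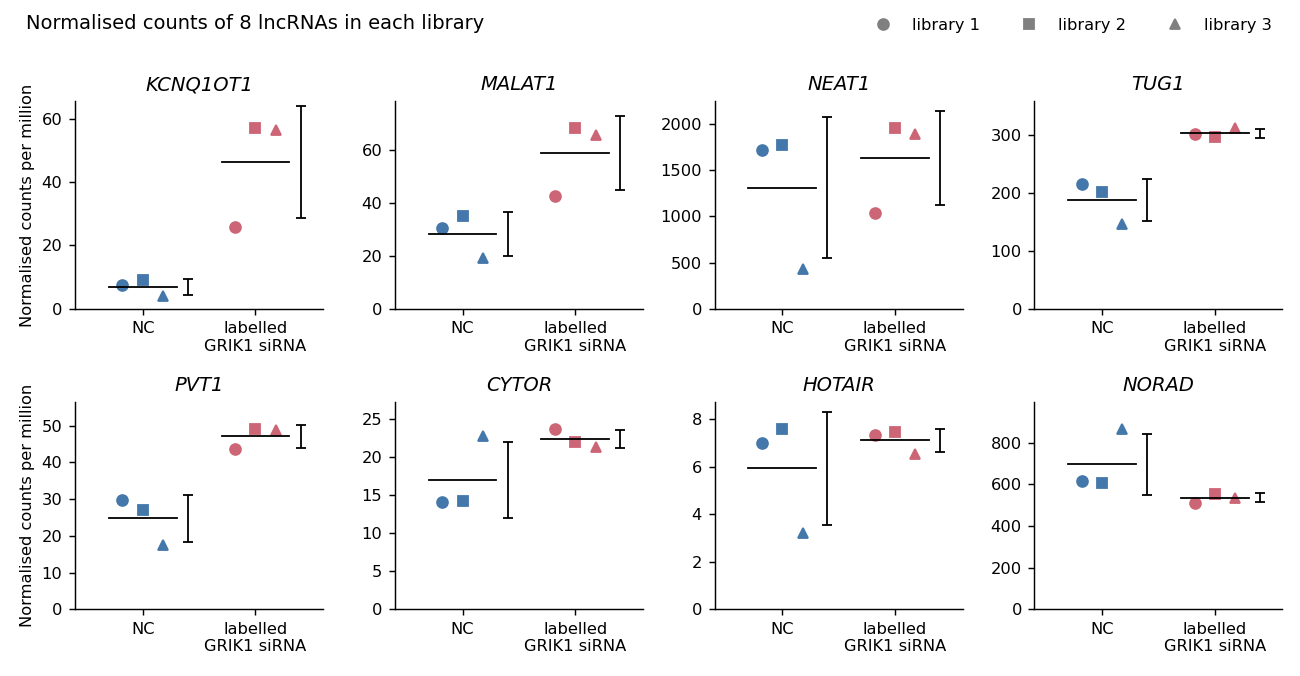
Normalised CPM (linear axes from 0) of 8 lncRNAs in each library, with symbols for libraries 1 to 3, the group mean as a line and the SD as a bar (n = 3). KCNQ1OT1, MALAT1, TUG1 and PVT1 lie higher in the 3 siRNA-labelled libraries than in every NC library, NORAD lies lower, and NEAT1, HOTAIR and CYTOR overlap.

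**Figure D4:**
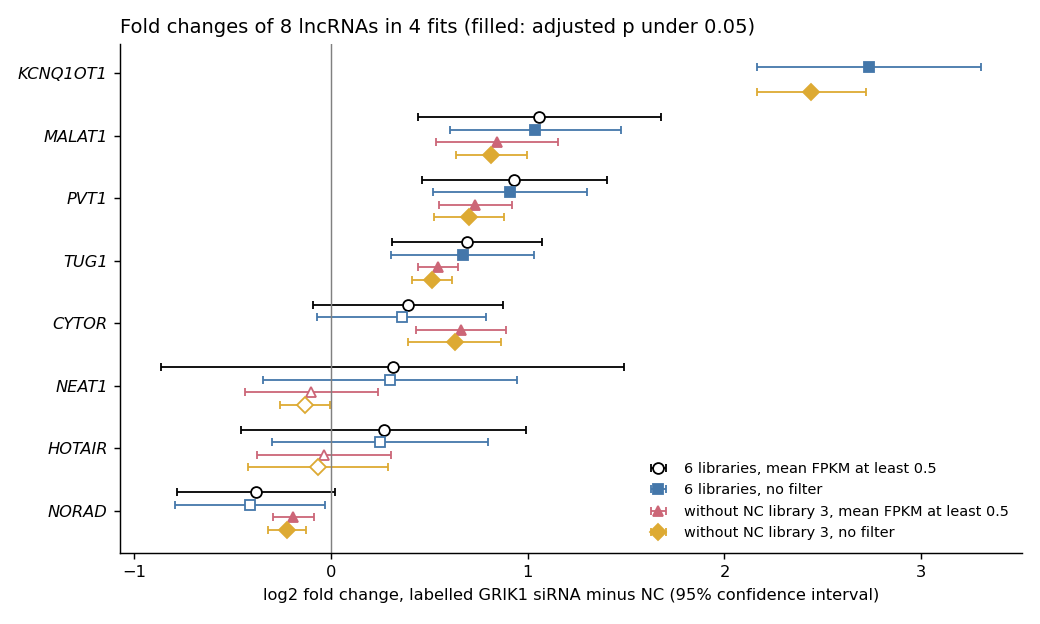
Log2 fold changes of 8 lncRNAs (siRNA-labelled minus NC) with 95% confidence intervals in 4 edgeR fits, where filled symbols have an adjusted p under 0.05. With 6 libraries and the filter, no interval carries a filled symbol. Without NC library 3 the intervals are narrower and NEAT1 and HOTAIR move to the left of 0.

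Single libraries set much of this spread. NC library 3 was compared with the mean of NC libraries 1 and 2, with exact intervals that cover counting error only. NEAT1 was at 0.247 of their level (0.240 to 0.255), HOTAIR at 0.439 (0.302 to 0.623), KCNQ1OT1 at 0.469 (0.335 to 0.645), MALAT1 at 0.585 (0.503 to 0.678) and PVT1 at 0.615 (0.525 to 0.718). TUG1 was at 0.706, while NORAD at 1.42 and CYTOR at 1.61 were higher. Of the 7 tested members, 4 were at least 1.5 times lower in NC library 3 than in both other NC libraries and 1 was at least 1.5 times higher. The same was true of 22.5% and 15.3% of all tested genes, and of 40.9% and 8.02% of the 2268 tested genes that GENCODE 29 lists as lncRNAs.

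Among the siRNA-labelled libraries, library 1 was lower than libraries 2 and 3 for KCNQ1OT1, NEAT1 and MALAT1. KCNQ1OT1 in library 1 was at 0.458 of the level in libraries 2 and 3 (0.406 to 0.517), NEAT1 at 0.541 (0.530 to 0.551) and MALAT1 at 0.637 (0.578 to 0.702). PVT1 was at 0.890 (0.804 to 0.983), NORAD at 0.939, TUG1 at 0.995, HOTAIR at 1.05 and CYTOR at 1.09. Of the 7 tested members, NEAT1 and MALAT1 were at least 1.5 times lower in library 1 than in both others, against 4.47% of all tested genes and 13.2% of the lncRNAs. In the siRNA-labelled libraries 2 and 3 the matching shares were 2.65% and 2.70% of genes. These 3 RNAs were chosen for this description after their values were seen, and 1 library has no replicate, so the difference between these libraries was not tested against a spread.

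**Figure D5:**
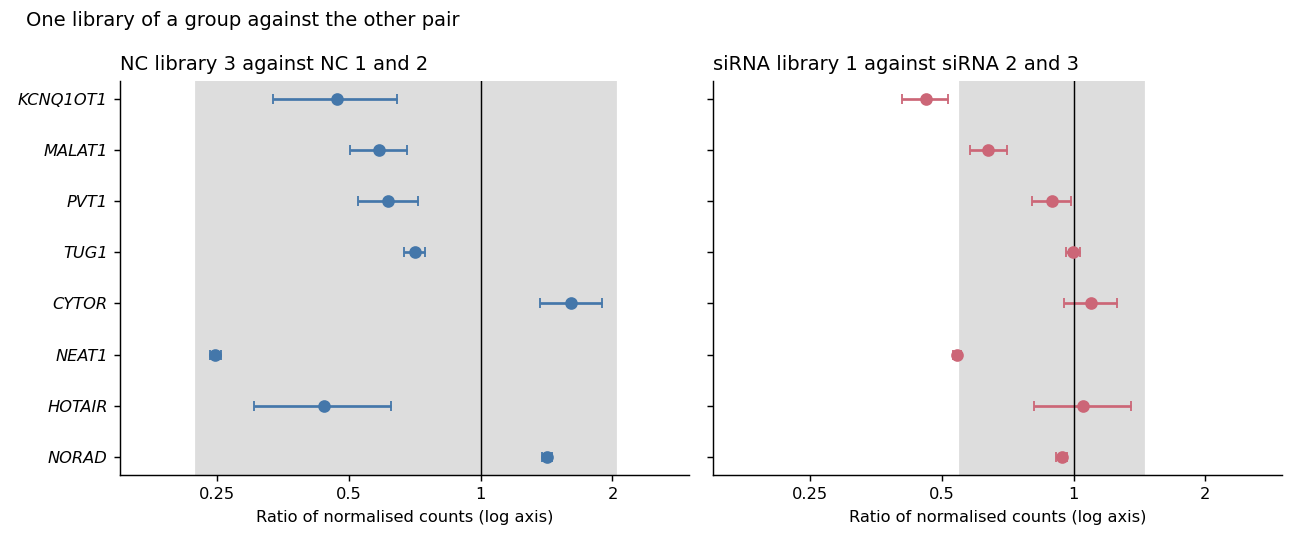
Ratio of normalised counts (log axis) of NC library 3 to NC libraries 1 and 2 (left) and of the siRNA-labelled library 1 to libraries 2 and 3 (right), with exact 95% intervals for counting error, for 8 lncRNAs. The grey band spans the 5th to 95th percentile of all tested genes, 0.224 to 2.04 on the left and 0.549 to 1.45 on the right, where KCNQ1OT1 and NEAT1 fall below it.

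For each tested member, the gene with the most similar pattern was named by the Pearson correlation of log2 CPM over the 6 libraries, which share the low or high value of NC library 3. It was HERC2P9, a pseudogene, for PVT1 (r = 0.9996), SEC31A, a coat protein gene of vesicle transport, for TUG1 (r = 0.999), and ZNF326 for HOTAIR (r = 0.999). It was HDHD2 for NORAD (r = 0.998), PPP6R3, a phosphatase subunit, for CYTOR (r = 0.996), and the unnamed ENSG00000224376 and ENSG00000273096 for NEAT1 and MALAT1 (r = 0.998 and 0.996). With 6 libraries such values are common, since between 0.838% and 7.79% of the tested genes reached 0.95 with a given member. Among the members themselves, PVT1 and TUG1 were the most alike (r = 0.993), MALAT1 and PVT1 had 0.956, and NORAD and TUG1 -0.942.

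Within 100000 bases of the members, 30 other genes were tested and 0 were called, where 3.08% of all tested genes were. Of the 30, 22 had a positive log2 fold change, as had 48.6% of all tested genes. In the fit without NC library 3, 7 of the 30 were called, against 35.2% of all. LTBP3, a TGF-beta binding protein gene beyond MALAT1, had 0.24 (adjusted p = 0.698), which turned to -0.11 without NC library 3. For NORAD, EPB41L1, a cytoskeletal gene, had -0.059 and PHF20, a chromatin reader, -0.31 (adjusted p = 0.831 and 0.206). SCAND1, the other tested neighbour of NORAD, had a positive value, 0.17 (adjusted p = 0.631). Without NC library 3, PHF20 was called as lower (-0.18, adjusted p = 0.0385). In that fit EPB41L1 was at -0.17 and SCAND1 at 0.30 (adjusted p = 0.213 and 0.132).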

How the data were processed

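RNA of U87-MG cells was sequenced in 3 NC libraries and 3 libraries labelled GRIK1 siRNA, grouped by their titles. The submitters' processing notes name cutadapt 1.9.1, HISAT2, HTSeq and GRCh38. The authors deposited whole-number counts per gene without normalization. The deposited FPKM values equal the count divided by exonic size and total count, which was checked on the table (100% of values). The strand setting is not given in the sources used here. The exonic size is a deposited column.

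Counts were tested with edgeR 4.0.16 (TMM, quasi-likelihood) in R 4.3.3, with Benjamini-Hochberg adjustment over 15870 genes of mean FPKM of at least 0.5. DESeq2 1.42.0 and limma 3.58.1 (limma-trend on log2(FPKM + 1) or log2(FPKM + 0.1)) were alternatives, beside other scalings and filters, a replicate block and leaving out each library. An exact permutation test of 3 libraries against 3 cannot give less than 0.1. Intervals of the edgeR fold changes include the spread between libraries. The floors, and the exact intervals of the ratio of 1 library to the others of its group, cover counting error only. Coordinates are 1-based on GRCh38.

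The members and lists were chosen with earlier results of these data known. Named genes were the members, GRIK1, genes that overlap a member and the most correlated gene of each tested member. Neighbours within 100000 bases and list genes were to be named if their adjusted p was under 0.05. Beside those, up to 3 other neighbours per member and up to 4 other genes per list were named by mean CPM. JARID2, MIR4435-2HG, NONO, PSPC1 and NUDT21 fall outside this rule and were chosen after their values were seen. Some items are not reported here.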

Additional observations from a re-analysis of the deposited data

How the results depend on the processing

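Calls of genes below come from fits with the filter, and calls of the 10 lncRNAs add the 3 under the filter from the matching fit without it. With all 6 libraries, 489 genes were called with the filter, 0 of the 7 tested lncRNAs among them, and KCNQ1OT1 was called without it, so 1 of the 10. Leaving out 1 library gave from 0 to 5591 genes and from 1 to 6 lncRNAs. The high values belong to the fit without NC replicate 3, and leaving out any other library gave 0 genes with the filter and 1 lncRNA, KCNQ1OT1, without it. Without the filter 1403 genes and 4 lncRNAs were called, and with DESeq2 1684 genes and 4. With limma-trend 0 lncRNAs were called at either pseudocount, and a pseudocount of 0.1 gave 280 genes. Calls with a log2 fold change over 1 numbered 224. With the replicate number as a block, 0 genes were called with the filter, and KCNQ1OT1 was at 2.70 in the block fit without it. Deviations of same-numbered libraries from their group means had correlations of -0.070, 0.044 and -0.043, and not every library correlated best with its own number. With so few libraries per group and NC replicate 3 apart from the others, these values cannot decide whether same-numbered libraries were paired. NEAT1 ranged from -0.10 to 0.60 and HOTAIR from -0.035 to 0.49 over the fits that left out 1 library, and both were below 0 without NC replicate 3 alone. The other 8 members kept their sign in each alternative that gave a value. MALAT1, PVT1 and TUG1 passed in 3 of 15 alternatives each and CYTOR and NORAD in 1. The filterByExpr filter of edgeR and the runs of each alternative without the filter, which gave the values of KCNQ1OT1, MEG3 and H19, were chosen after seeing the data. The cause of these changes was not tested. Depth limits H19 and MEG3, and low counts of neighbours.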

Other observations

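Of 35 other cancer-related lncRNAs, 34 were found and 19 passed the filter. In edgeR 0 were called and 6 had an unadjusted p under 0.05, against 25.1% of all tested genes. DESeq2 called 2. The median log2 fold change of the 19 was -0.15, and 8 of 19 were higher in the siRNA-labelled libraries. The median turned to 0.081 without NC library 3. LUCAT1, a stress-responsive RNA and the most abundant of them, had counts of 3224, 3087 and 2473 in NC and 3855, 4368 and 4516 in the siRNA-labelled libraries, with a log2 fold change of 0.35 (adjusted p = 0.230). GAS5 and ZFAS1, host genes of small nucleolar RNAs, had 2666, 2794 and 5507 and 1804, 1891 and 4240 counts in NC, with NC library 3 the highest in both. Their log2 fold changes were -0.40 and -0.37 (adjusted p = 0.331 and 0.436), and -0.051 and 0.071 without NC library 3. FTX, an RNA of the X inactivation centre, had 2148, 2071 and 873 counts in NC, with NC library 3 the lowest, and 1997, 2250 and 2348 in the siRNA-labelled libraries. Its log2 fold change was 0.17 (adjusted p = 0.772) and turned to -0.16 without NC library 3 (adjusted p = 0.0233). Without NC library 3, 10 of the 19 were called, 5 as higher and 5 as lower, against 35.2% of all tested genes.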
